A study of Mus musculus with 45 samples.

Results

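Nonsense-mediated decay is the cytoplasmic surveillance route that destroys mRNAs on which a ribosome stops too early. 7 of its factors were followed here, chosen by name as Upf1, Upf2, Upf3a, Upf3b, Smg1, Smg5 and Smg6, out of 23575 genes measured in 45 mouse long-read RNA libraries. Their 214 transcripts with a deposited level were part of 276608 in all, and 1377 transcripts had been assembled for the 7 genes. The authors' classification called 177 of the 214 coding and 37 non_coding.

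In this pathway a terminating ribosome recruits Upf1, an RNA helicase. Upf2 and Upf3b or Upf3a bridge it to the exon junction complex, a set of proteins left on the mRNA at exon joints. The kinase Smg1 then phosphorylates Upf1, and phosphorylated Upf1 is bound by Smg5 and Smg6. Smg6 cuts the mRNA itself, while Smg5 leads to loss of the tail and cap. Several of the factors' own mRNAs are known targets of the pathway, and decay factors are known to influence the balance between self-renewal and differentiation in stem cells.

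The libraries come from neural progenitors being reprogrammed to induced pluripotent stem cells. The progenitors were derived from O4G embryonic stem cells, an R1 line carrying a GFP reporter of Oct4, and were WT or carried the doxycycline-inducible factor sets named OKMS-Luciferase-AS or OKS-Luciferase-AS (Oct4, Klf4 and Sox2 with or without Myc). Progenitors were kept in NPC medium. Reprogramming cells were moved to FBS-LIF medium with doxycycline, and some were later kept in 2i-LIF, a medium with LIF and inhibitors of GSK3 and MEK. WT cells after 2 days in FBS-LIF with doxycycline are the labelled non-reprogramming control. Stem cells of the lines O4G, R1 and R1-Clone3, all labelled WT, were grown in 2i-LIF. The labels do not say whether libraries of a group came from separate cultures, so the p-values measure the spread between these libraries, which may be technical.

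22 libraries, called R9 here after their flow cell, were made as direct cDNA from poly(A)-enriched RNA and hold 447990 to 1390424 reads assigned to genes. The other 23, called R10, were made as PCR cDNA from total RNA and hold 566599 to 4236442 reads. The chemistries were analysed apart for stem cells, the WT medium change and the time course. They were joined only in the interaction and in the OKMS against OKS and 2i-LIF fits, where each pair lies within 1 chemistry. Within R10, 10 libraries carry a library name in their description: 4 of day 18 and 6 stem cell libraries numbered n1 or n2. In these 10, mitochondrial transcripts took 1.56 to 2.35% of reads and incomplete splice matches 14.6 to 20.3% of transcript TPM, against 0.124 to 1.64% and 7.84 to 12.9% in the other 13 R10 libraries. All 4 R10 progenitor libraries and 1 R10 library of R1 stem cells, which has no n number and is called the unnumbered R1 library here, belong to the 13. The labelled cell types matched their markers: 6 stem cell markers summed to 11001 to 13551 CPM in R10 stem cells against 14.9 to 28.0 in R10 progenitors, and 6 progenitor markers to 4934 to 6456 CPM in R10 progenitors against 4.41 to 42.9 in stem cells.

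Gene levels are given as CPM, read counts scaled to the same total of assigned reads in each library. They are not divided by gene length, so they are compared between libraries and not between genes. Differences are on the log2(CPM + 1) scale, which understates changes of low genes, and a gene was called where limma's p, adjusted over all genes tested by the Benjamini-Hochberg method, was under 0.05. Transcript levels are given as TPM, which is corrected for length. A share of TPM is therefore not a share of reads, and TPM and CPM are not on the same scale. In bulk RNA, fewer cells of a type and less RNA per cell cannot be told apart.

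Smg6 was the member called lower in stem cells than in progenitors in both chemistries. Upf1 and Upf3a were called lower in R10, where the 6 numbered stem cell libraries hold the low values. In R10, 5 of the 7 members were called between 7 stem cell and 4 progenitor libraries, 2 of them higher (Upf2 and Smg1) and 3 lower (Upf1, Upf3a and Smg6). The background was high, since 69.2% of the 15415 genes tested were called, 34.7% higher and 34.6% lower. Upf1, Upf3a and Smg6 also differed by at least 1 on the log2 scale, as did 45.8% of all genes. The unnumbered R1 library alone gave 2 calls against the same progenitors, Smg5 higher and Smg6 lower, beside 33.7% of 17534 genes. In that fit the spread comes from the progenitor libraries, and the lone library is assumed to vary as they do. In R9, 3 members were called between 2 stem cell and 4 progenitor libraries, Upf1 and Smg5 higher and Smg6 lower, beside 43.5% of 15746 genes. The median difference over the members was -0.03 in R10 and 0.62 in R9, and over all genes tested 0.0059 and -0.071. The calls for Upf1 had opposite directions in the 2 chemistries.

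**Figure D1:**
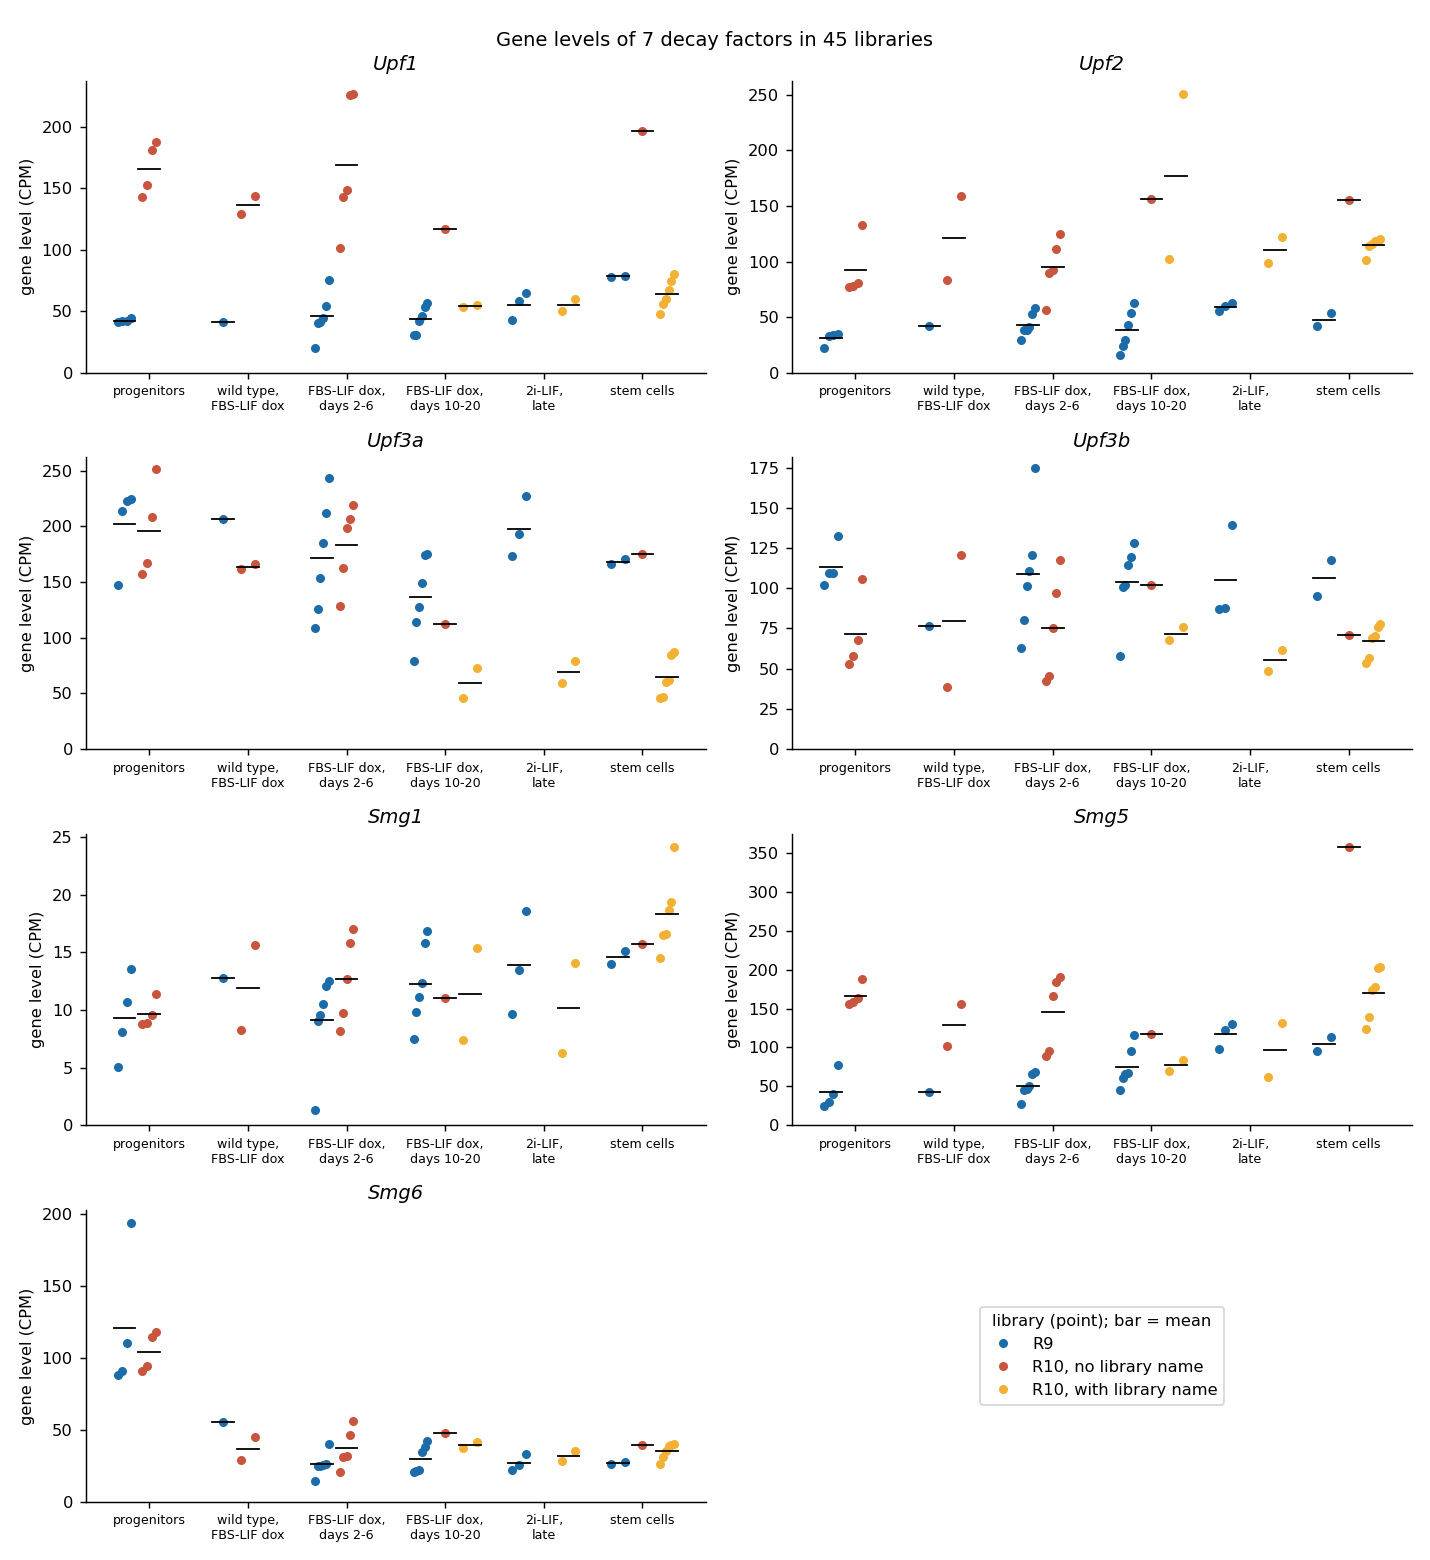
Gene levels in CPM (vertical axes, linear) of the 7 decay factors in 45 libraries grouped by cell state (horizontal axes). Each point is 1 library and each bar the mean of its points, with R9 in blue, R10 without a library name in red and R10 with a library name in yellow. Smg6 is highest in progenitors in every chemistry, and the red and yellow stem cell points lie apart for Upf1, Upf3a and Smg5.

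Upf1, the helicase at the centre of the pathway, lies on the minus strand at chr8:70331525-70353278 (GRCm38, GENCODE M21). In R9 its level was 41.6, 41.7, 42.2 and 44.1 CPM in progenitors and 78.2 and 78.6 CPM in stem cells, so the groups do not overlap. The R9 difference was 0.87 ± 0.13 (SE; limma, adjusted p = 0.00197). In R10, progenitors held 143, 152, 181 and 188 CPM. The lowest, median and highest of the 7 R10 stem cell libraries were 47.6, 67.5 and 197 CPM. The highest is the unnumbered R1 library, above all 4 progenitor libraries, and the 6 numbered libraries, at most 80.1 CPM, lie below all 4. The R10 difference was -1.14 ± 0.28 (adjusted p = 0.00214), and the unnumbered R1 library alone gave 0.25 ± 0.19 against the same progenitors (adjusted p = 0.379). The difference in R10 was lower than that in R9 by an interaction of -2.01 ± 0.42 (adjusted p = 0.0125), the 1 interaction called among the members, beside 3.79% of all genes. Without the 6 numbered libraries the interaction was -0.62 (adjusted p = 0.298), with no member and 0.840% of all genes called (limma; 1 member had an unadjusted p under 0.05). Day 18 cells, also in libraries with a library name, held 50.1 to 60.0 CPM. The R10 values at or below 80.1 CPM were all in libraries that carry a name, and cell state and library set cannot be told apart there.

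The deposited transcript table holds 16 Upf1 transcripts, of which 1 holds most of the TPM wherever it appears. This short transcript, Upf1.G50143.5, spans chr8:70331525-70332944, is 667 bases long in 2 exons, and is called non_coding and novel_not_in_catalog. Its first exon starts upstream of the annotated exon before last, runs through that exon and ends 4 bases past the annotated donor. Its second exon leaves out 617 bases of the annotated last exon and then runs to the annotated gene end, with an AATAAA 14 bases before its end. The annotated stop codon lies 7 bases before the donor it uses, so the second exon lies in the 3′ UTR. 11 of the 16 Upf1 transcripts use that donor and none the annotated one, but 2 use its acceptor. The bases at that acceptor, with the AG in capitals, and the 20 genomic bases after the transcript end, with any A in capitals, show a splice acceptor and an end that is not followed by an A-rich stretch:
Acceptor of the short Upf1 transcript: cggtttgtctctAGagacctgact
After the end of the short Upf1 transcript: gtccctgcttttgcgtgggg

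The short transcript was named when the genes were chosen, so its levels are described without a test. It was above 0 in 15 of the 45 libraries and listed at 0 in 30. In R9 it reached 50.2 TPM in O4G and 76.1 TPM in R1 stem cells. It was also present in FBS-LIF with doxycycline at 66.6 TPM in OKMS day 10, 38.8 in OKMS day 14, 52.4 in OKS day 14, 36.0 in OKMS day 20 and 57.2 in OKS day 20. In R10 it reached 110 TPM in OKMS day 10 and 162 TPM in the unnumbered R1 library, and 27.4 ± 8.02 TPM (SD, n = 6, at most 42.0) in the numbered stem cell libraries. It was listed at 0 in all progenitors, in WT cells in FBS-LIF with doxycycline, at days 2 to 6, in OKS day 10, in all 5 libraries of reprogrammed cells in 2i-LIF and in all 4 libraries of day 18.

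The zeros did not go with low Upf1 gene levels. Libraries without the short transcript held 20.1 to 75.1 CPM of Upf1 in R9 and 50.1 to 227 CPM in R10. Libraries with it held 30.6 to 78.6 and 47.6 to 197 CPM. All other Upf1 transcripts together made up only 0 to 15.6 TPM in any library, also where the gene held 227 CPM. TPM is corrected for length and CPM is not, so these values do not show what share of the gene's reads the transcripts hold. 5 other transcripts of the 276608 share exactly its pattern of presence and 0, from Psme3, Gm16286, Txn1, the antisense of Slc2a3 and Trmt1. All 5 are called non_coding, as is the short transcript, but the share of non_coding over all 276608 is not given here for comparison. Whether a 0 reflects the cells or the authors' transcript assignment was not tested.

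**Figure D2:**
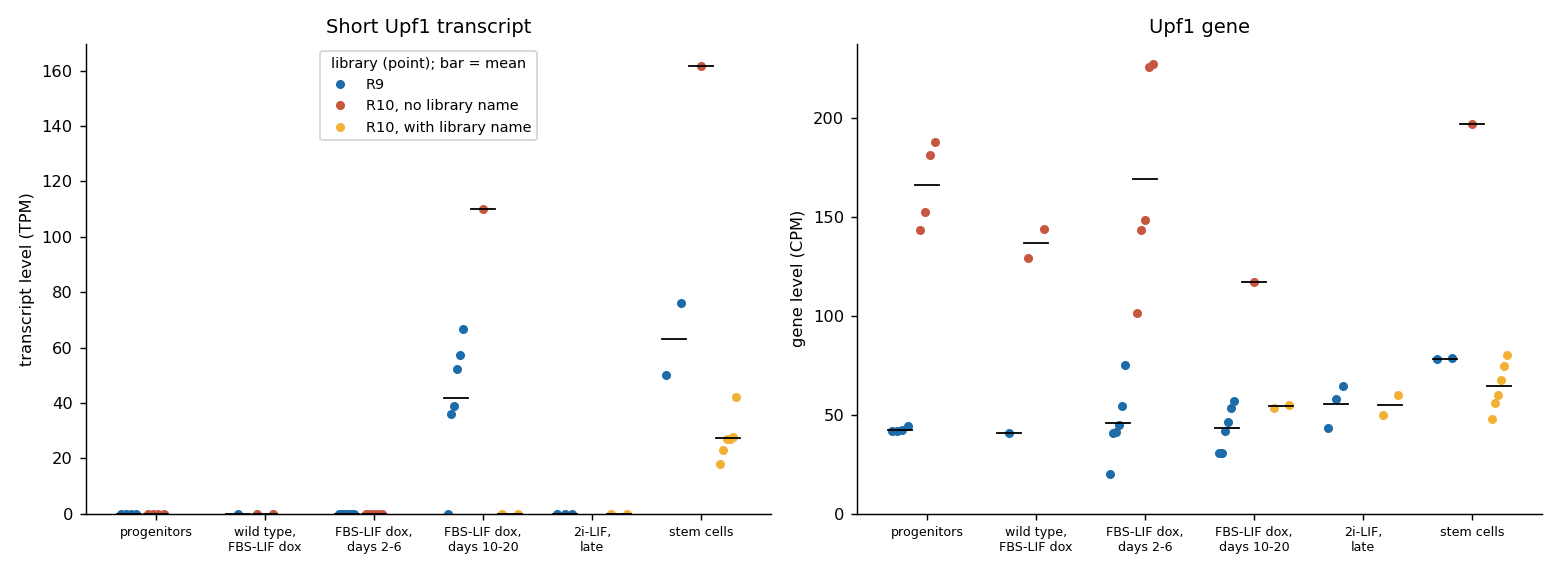
Level of the short Upf1 transcript in TPM (left) and of the Upf1 gene in CPM (right), linear axes, by cell state. Each point is 1 library, bars are means, and colours give chemistry and library set. The transcript is at 0 in all progenitors and at 162 TPM in 1 stem cell library, while the gene is above 0 in every library.

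The other Upf1 transcript that met the minimum TPM in R10, the coding Upf1.G50143.2 (12 exons, 2561 bases, an open reading frame of 511 codons), was low in the numbered R10 stem cell libraries, as the gene was. It held 2.34 ± 0.65 TPM (SD, n = 4) in R10 progenitors, 0.202 ± 0.161 (n = 6) in numbered stem cells and 2.35 in the unnumbered R1 library. In R9 it held 0.671 ± 0.791 TPM (n = 4) in progenitors and 0.817 and 4.13 TPM in stem cells. It was named because it was called in R10, where it met the minimum through the progenitors and the unnumbered R1 library, so no test is given.

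The genes whose levels were most like those of Upf1 over the 23 R10 and the 22 R9 libraries, among 10877 compared, were the merged locus Rpl13_Spg7 (Pearson r 0.85 and 0.75), Maz, a zinc finger transcription factor (0.78 and 0.78), and Macroh2a1, a histone variant (0.93 and 0.62). These values are descriptions, since the libraries share cell states, depth and the R10 library sets.

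Upf2, the scaffold that contacts both Upf1 and Upf3 proteins, lies at chr2:5951469-6056703 on the plus strand. In R10 its progenitor levels were 77.3, 77.7, 80.9 and 133 CPM. The lowest, median and highest stem cell libraries were 102, 118 and 155 CPM. All but the highest progenitor library lie below the stem cells. The difference was 0.41 ± 0.16 (adjusted p = 0.0302), and it lost the call when any 1 of the 3 lower progenitor libraries was left out (OKMS, adjusted p = 0.101; OKS, 0.100; WT replicate 3, 0.0873). In R9 progenitors held 21.9, 33.4, 33.9 and 35.0 CPM and stem cells 41.7 and 54.0. The R9 difference of 0.62 ± 0.25 was not called (adjusted p = 0.0909).

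Upf2 is the member whose transcripts are most often called non_coding, at a median of 96.4% of its TPM over the 45 libraries. 11 of its 14 non_coding transcripts, the 6 most abundant included, start near the gene start and stop far short of its end, and the other 3 lie at the 3′ end. The 4 described here, chosen as the most abundant and the most different, have 2 exons and 158 to 380 bases, start within 42 bases of the gene start and stop 98929 to 99169 bases before its end. The full-length reference match Upf2.G27507.40 (22 exons, 5160 bases) held 2.08 ± 0.78 TPM (SD, n = 23) over R10 libraries, against 113 ± 64.5 for Upf2.G27507.12 alone. Because TPM is corrected for length and these lengths differ widely, the values do not give a ratio of reads. The 20 genomic bases after each end, with A in capitals, show that 3 of the 4 pieces stop at a stretch that is 50% A:
After Upf2.G27507.12: ggAAgAcAAggAAcgcAAgA
After Upf2.G27507.35: AAcAggAAgAggAAgAgAgg
After Upf2.G27507.17: ctttActAAAcAAcAAggAA
After Upf2.G27507.51: gActgcAgtgAgAggcggcc

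Of 16 Upf2 transcripts tested in R10, 12 were non_coding. In stem cells 4 were higher, all non_coding, and 1 lower, beside 28.0% higher and 20.2% lower of all transcripts tested. The 4 include Upf2.G27507.51 and Upf2.G27507.17, which were named after their values were seen. Upf2.G27507.51 held 0, 0, 3.53 and 5.86 TPM in progenitors, 4.24 TPM in the unnumbered R1 library and 49.9 ± 10.1 TPM (SD, n = 6) in the numbered libraries. Its R9 values were 0 in all 4 progenitors and 13.2 and 13.4 TPM in stem cells. They are given without a test, since the transcript was picked for them. The piece Upf2.G27507.17 held 20.8 ± 13.5 TPM in R10 progenitors, 109 ± 20.4 in numbered stem cells and 20.2 in the unnumbered R1 library. Upf2.G27507.12, the most abundant, went the other way in R10 (-0.77, adjusted p = 0.0277), with 0.23 in the unnumbered R1 library and 0.48 in R9. The unnumbered R1 library lay with the progenitors for all 3 pieces, so library set and cell state cannot be told apart in R10. The full-length Upf2.G27507.40 did not pass the test (0.06, adjusted p = 0.867).

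Upf3a and Upf3b are related adaptors between Upf2 and the exon junction complex. Upf3b is X-linked and the more active in decay, and Upf3a can substitute for it or oppose it. Upf3b (chrX:37091678-37110322, minus strand) differed little between the cell states. It held 53.1, 57.8, 68.1 and 106 CPM in R10 progenitors and 53.4 to 78.0 CPM in R10 stem cells (-0.03 ± 0.18, adjusted p = 0.881). In R9 the levels were 102, 109, 110 and 132 CPM against 94.9 and 117 (-0.10 ± 0.16, adjusted p = 0.651).

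Upf3a (chr8:13785615-13799193, plus strand) held 157, 167, 208 and 252 CPM in R10 progenitors. The lowest, median and highest R10 stem cell libraries were 45.9, 61.7 and 176 CPM. The 6 numbered libraries lie below all progenitors, but the unnumbered R1 library, at 176 CPM, lies among them. The R10 difference was -1.40 ± 0.29 (adjusted p = 0.000523), and for that R1 library alone -0.13 ± 0.31 (adjusted p = 0.768). In R9 the levels were 147, 214, 223 and 224 CPM in progenitors and 167 and 170 in stem cells (-0.24 ± 0.20, adjusted p = 0.359). As for Upf1, the named set of libraries, day 18 included (46.0 to 79.3 CPM), holds the low values.

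At transcript level the full-splice match Upf3a.G49137.362 (9 exons, 1576 bases, 422 codons) held 33.2 ± 15.2 TPM (SD, n = 4) in R10 progenitors, 3.34 ± 1.81 (n = 6) in numbered stem cells and 17.4 in the unnumbered R1 library. Its 5′ fragment Upf3a.G49137.363 (743 bases), the most abundant coding Upf3a transcript, held 11.7 ± 2.28, 28.1 ± 7.70 and 7.21 TPM in the same groups. Transcripts reaching within 500 bases of both gene ends made up 53.6 ± 10.0% of Upf3a TPM in R10 progenitors, 28.8 ± 8.41% in R9 progenitors (n = 4 each) and at most 29.5% in R9 stem cells (n = 2). Over R10 stem cells this share was 15.1 ± 11.6% (n = 7), with 41.2% as its highest value. Numbered and unnumbered libraries are pooled in it, so library set and cell state cannot be told apart. The share of TPM called non_coding stayed between 0 and 12.0% in every library.

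1 Upf3b transcript, picked after its values were seen and so given without a test, was listed at 0 in stem cells of both chemistries. Upf3b.G55613.236 is non_coding, has 2 exons and 1093 bases, and ends at the annotated gene end with an AATAAA 24 bases before it. Its zeros cover all 9 stem cell libraries. Progenitors held 2.07 ± 0.96 TPM (SD, n = 4) in R10 and 17.2 ± 9.14 TPM (n = 4) in R9. The 20 bases after its end, with A in capitals, do not form an A-rich stretch:
After Upf3b.G55613.236: gctgcgtttAtttAttcAAg

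Smg1, the kinase of Upf1 (chr7:118131308-118243670, minus strand), was a low gene in these libraries, with 1 to 22 reads per library in R9 and 4 to 93 in R10. In R10 progenitors it held 8.76, 8.89, 9.53 and 11.4 CPM. The lowest, median and highest R10 stem cell libraries were 14.5, 16.6 and 24.1 CPM, all above every progenitor library. The difference was 0.82 ± 0.18 (adjusted p = 0.000735), and 0.65 ± 0.21 for the unnumbered R1 library (adjusted p = 0.0906). In R9 progenitors held 5.06, 8.08, 10.7 and 13.6 CPM and stem cells 14.0 and 15.1. That difference was not called (0.66 ± 0.40, adjusted p = 0.224). All 12 Smg1 transcripts were called coding and none ran near both gene ends. The only one tested, the 3′ fragment Smg1.G47987.494 (7026 bases), held 0.894 ± 0.347 TPM in R10 progenitors and 0.929 ± 0.314 in R10 stem cells (0.03, adjusted p = 0.922).

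Smg5, which recruits deadenylation and decapping, lies at chr3:88336260-88362338 on the plus strand. In R9 its level was 25.4, 30.4, 40.4 and 77.4 CPM in progenitors and 95.9 and 114 in stem cells. These groups do not overlap, and the difference was 1.38 ± 0.43 (adjusted p = 0.0419). That call was lost without any 1 of 5 of the 6 libraries (adjusted p = 0.300 without O4G, 0.228 without R1, 0.0633 without WT replicate 1, 0.0733 without OKMS and 0.0798 without OKS). In R10 progenitors held 156, 158, 163 and 187 CPM, and the lowest, median and highest stem cell libraries 124, 177 and 358 CPM. The numbered libraries straddle the progenitors (0.02 ± 0.14, adjusted p = 0.927), while the unnumbered R1 library, at 358 CPM, stands 1.11 ± 0.13 above them (adjusted p = 0.00764). Over all 7 the difference was 0.17 ± 0.21 (adjusted p = 0.491). None of the 26 Smg5 transcripts was called non_coding. The most abundant, the reference match Smg5.G33108.1391 (22 exons, 4445 bases, 1017 codons), held 0.477 ± 0.521 TPM over all 45 libraries, too low for the transcript test.

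Smg6, the endonuclease of the pathway (chr11:74925823-75164448, plus strand), was called lower in R10 and in R9. In R10 progenitors it held 90.8, 94.1, 114 and 118 CPM. The lowest, median and highest R10 stem cell libraries were 26.3, 38.9 and 39.8 CPM, and the unnumbered R1 library was at 39.2. In R9 progenitors it held 88.3, 91.1, 110 and 194 CPM and in stem cells 26.1 and 27.5. No stem cell library comes near a progenitor library in either chemistry. The difference was -1.53 ± 0.15 in R10 (adjusted p = 2.04e-07), -1.38 ± 0.19 for the unnumbered R1 library (adjusted p = 0.0124) and -2.06 ± 0.33 in R9 (adjusted p = 0.00308). The R9 call was lost with 1 stem cell library left (adjusted p = 0.0658 without O4G and 0.0729 without R1), at differences of -2.09 and -2.02.

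**Figure D3:**
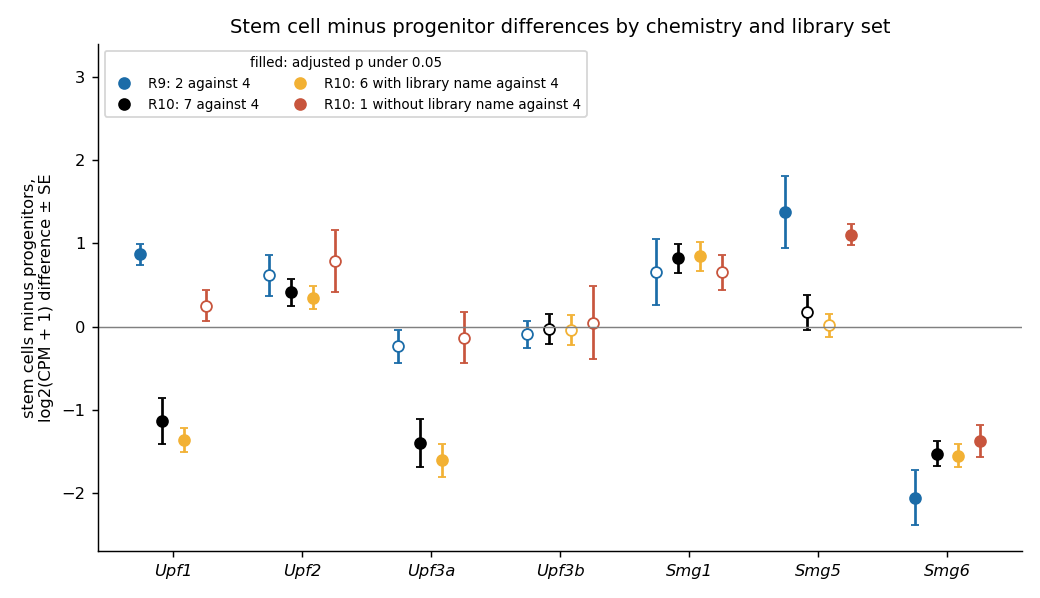
Stem cell minus progenitor difference on the log2(CPM + 1) scale (vertical axis) for each decay factor, with its standard error, in R9, in R10, in the 6 R10 stem cell libraries with a library name and in the 1 without. Filled points were called at an adjusted p under 0.05 in limma. Smg6 lies below -1.3 in all 4 fits, while Upf1 lies at 0.87 in R9 and -1.14 in R10.

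The Smg6 transcripts differed by where they start. 6 of its 29 transcripts start within 500 bases of the start of a short annotated transcript (chr11:75132435-75139369), in intron 13 of the long annotated transcript with 19 exons. In R10 progenitors the 6 summed to 21.3, 21.3, 32.0 and 34.8 TPM, and in R9 progenitors to 18.8, 40.1, 42.6 and 64.6 TPM. They were listed at 0 in both R9 and 6 of 7 R10 stem cell libraries, and at 0.278 TPM in the unnumbered R1 library. The 15 transcripts that start near the annotated gene start did not show this pattern: they summed to 19.7 ± 7.83 TPM (SD, n = 4) in R10 progenitors, 32.9 ± 5.78 (n = 7) in R10 stem cells, 16.3 ± 13.5 (n = 4) in R9 progenitors and 11.7 ± 4.03 (n = 2) in R9 stem cells. These sums are descriptions, since the internal start was noticed in the data.

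The 2 most abundant internal-start transcripts, named after their values were seen, are called coding and novel_in_catalog. Smg6.G8223.563 (chr11:75132312-75164448, 7 exons, 2834 bases) joins its own first exon to exons 14 to 19 of the long transcript and ends on the same base. Smg6.G8223.569 (chr11:75132426-75163083, 1355 bases) uses the same exons and ends 1365 bases earlier. Both were given an open reading frame of 257 codons that ends at the stop codon of the long annotated transcript. The longest frame among the kept Smg6 transcripts has 1418 codons. The nuclease domain of Smg6 is known to lie at the C-terminal end of the protein. The 20 genomic bases after each end, with A in capitals, are poor in A, and an AATAAA stands 21 and 20 bases before the ends:
After Smg6.G8223.563: ttgAcctctgctggtctAtt
After Smg6.G8223.569: cgccgtggccgtgctgtggg

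Smg6.G8223.563 held 16.1 ± 3.46 TPM (SD, n = 4) in R10 and 19.9 ± 12.5 (n = 4) in R9 progenitors and was listed at 0 in all 9 stem cell libraries. Smg6.G8223.569 held 9.33 ± 3.76 and 20.0 ± 6.80 TPM in progenitors and 0 in all stem cell libraries. Both met the minimum TPM through the progenitors and were picked for this pattern, so neither a test nor a fold is given. Among the gene-start transcripts, the most abundant coding one, the 2-exon 5′ fragment Smg6.G8223.440 (770 bases), did not pass (-0.35, adjusted p = 0.332). The most abundant non_coding one, Smg6.G8223.413 (364 bases), held 0, 0, 3.49 and 5.09 TPM in R10 progenitors, 7.82 ± 3.15 (SD, n = 6) in numbered stem cells and 5.52 in the unnumbered R1 library, and was listed at 0 in the 6 R9 libraries of both states. It met the minimum through the stem cells, so no test is given. They stop 234863 and 235305 bases before the gene end. Transcripts that reach near both ends of Smg6 made up at most 5.55% of its TPM in any library, so the level of full-length Smg6 was not well measured here.

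**Figure D4:**
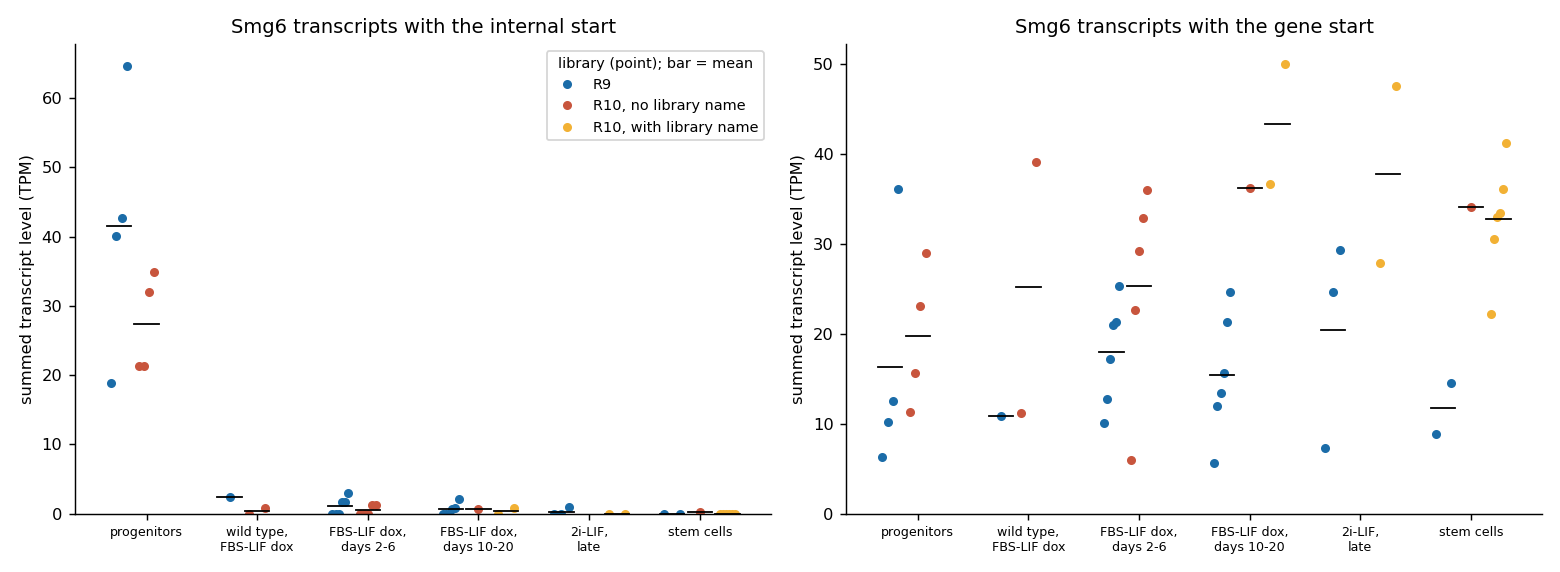
Summed TPM (vertical axes, linear) of the 6 Smg6 transcripts with the internal start (left) and the 15 with the gene start (right), by cell state. Each point is 1 library, bars are means, and colours give chemistry and library set. The internal start is at 18.8 to 64.6 TPM in progenitors and below 3 TPM in every other library.

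Over all members, 50 transcripts could be tested in R10 and 22 were called, 13 higher and 9 lower in stem cells, beside 48.2% of 58952 transcripts (28.0% higher and 20.2% lower). Of the 18 non_coding ones 8 were higher and 2 lower, and of the 32 coding ones 5 were higher and 7 lower. These counts include the short Upf1 transcript and those listed at 0 in one cell state. They are given as a description, without the shares called among all non_coding and all coding transcripts. The unnumbered R1 library gave 4 calls of 92 member transcripts tested, beside 11.5% of 105258 transcripts, and R9 gave 7 of 78, beside 13.5% of 80885. The balance of non_coding to coding TPM could be formed for 5 members in R10. That of Upf1 is set by the short transcript and is given no test. Of the other 4, only Smg6 passed the threshold, toward non_coding in stem cells, beside 36.6% of 4871 genes. It is read as a description, for the reasons given below. The median balance difference over all these genes was 0.195, also toward non_coding in stem cells. In R9 and for the unnumbered R1 library none of the other 4 was called by limma, with an unadjusted p under 0.05 for 0 of them in R9 and 1 (Smg6) for the unnumbered R1 library, beside 3.33% and 2.77% of genes. For Smg6 the non_coding share was 7.11 ± 4.06% (SD, n = 4) in R10 progenitors and 34.3 ± 7.80% (n = 7) in R10 stem cells (2.64 ± 0.42 on the log2 scale). No p-value is given for it. The most abundant non_coding Smg6 transcript, Smg6.G8223.413, met the minimum TPM through the stem cells. The Smg6 coding sum holds the most abundant internal-start transcripts, which were picked for their pattern. All internal-start transcripts summed to 27.4 ± 7.10 TPM (SD, n = 4) in R10 progenitors and 0.0398 ± 0.105 (n = 7) in R10 stem cells. Their drop moves the balance by itself, so the call is not separate from that pattern. In R9 the Smg6 share was 0 in both stem cell libraries and at most 2.87% in progenitors, and the call was not made (adjusted p = 0.400). The balances of Upf2, Upf3a and Upf3b differed by 0.23, 0.33 and 0.39 in R10 and were not called.

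WT progenitors moved to FBS-LIF with doxycycline for 2 days carry no factor set, and Smg6 was already lower in them. In R10 it held 28.7 and 44.6 CPM against 90.8 and 114 in WT progenitors (-1.48 ± 0.29, adjusted p = 0.0181). It was the 1 member called, beside 28.7% of 14688 genes, and the call was lost when any 1 of the 4 libraries was left out (adjusted p 0.0786 to 0.249). The 1 treated R9 library held 55.2 CPM against 88.3 and 194 (-1.23, adjusted p = 0.451). The internal-start Smg6 transcripts were at 0 and 0.784 TPM in the treated R10 libraries and 2.47 TPM in the treated R9 library. The sum of 3 astrocyte markers was higher with the treatment, at 1095 and 3038 CPM in the treated R10 libraries against 4.67 to 11.4 in all R10 progenitors. The single markers are not given, so the sum does not show which of them rose. The progenitor markers summed to 2813 and 5611 CPM in the treated R10 libraries, against 4934 to 6456 CPM in R10 progenitors. The part of these markers in the Smg6 result was not tested. Doxycycline and medium changed together and cannot be told apart. No other member passed. Upf1 held 129 and 144 CPM against 181 and 188 (-0.43, adjusted p = 0.154), and Smg5 102 and 156 against 163 and 187 (-0.47, adjusted p = 0.243).

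Along the R9 time course, with 1 OKMS and 1 OKS library a day, Smg6 was again the 1 member called (adjusted p = 0.0194, moderated F test in limma), beside 10.8% of 19357 genes. OKMS cells held 110 CPM at day 0, 24.9 at day 2, 25.9 at day 6, 38.0 at day 10, 34.8 at day 14 and 20.9 at day 20, with day 4 between those of days 2 and 6. OKS cells held 91.1 CPM at day 0, 14.7 at day 2, 40.1 at day 4, 25.4 at day 6, 42.4 at day 10, 22.3 at day 14 and 21.6 at day 20. Every later library lies below both day 0 libraries, and the differences from day 0 ran from -2.33 ± 0.38 at day 2 to -1.30 ± 0.38 at day 10. Since day 0 rests on 2 libraries, leaving out either ended the call (adjusted p = 0.108 without OKMS and 0.0799 without OKS). The internal-start transcripts, at 42.6 and 40.1 TPM at day 0, were at 0 to 2.93 TPM at days 2 to 20.

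Smg5 was at 40.4 and 30.4 CPM at day 0 and 116 and 94.9 CPM at day 20 in OKMS and OKS (1.55 ± 0.35, adjusted p = 0.113 over the time course). It was called by edgeR (adjusted p = 0.00976) and DESeq2 (0.0141) on the reads. Upf1 stayed between 20.1 and 75.1 CPM, Upf3b between 58.0 and 175 and Upf3a between 78.8 and 243, and none of them passed (adjusted p = 0.818, 0.810 and 0.301).

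**Figure D5:**
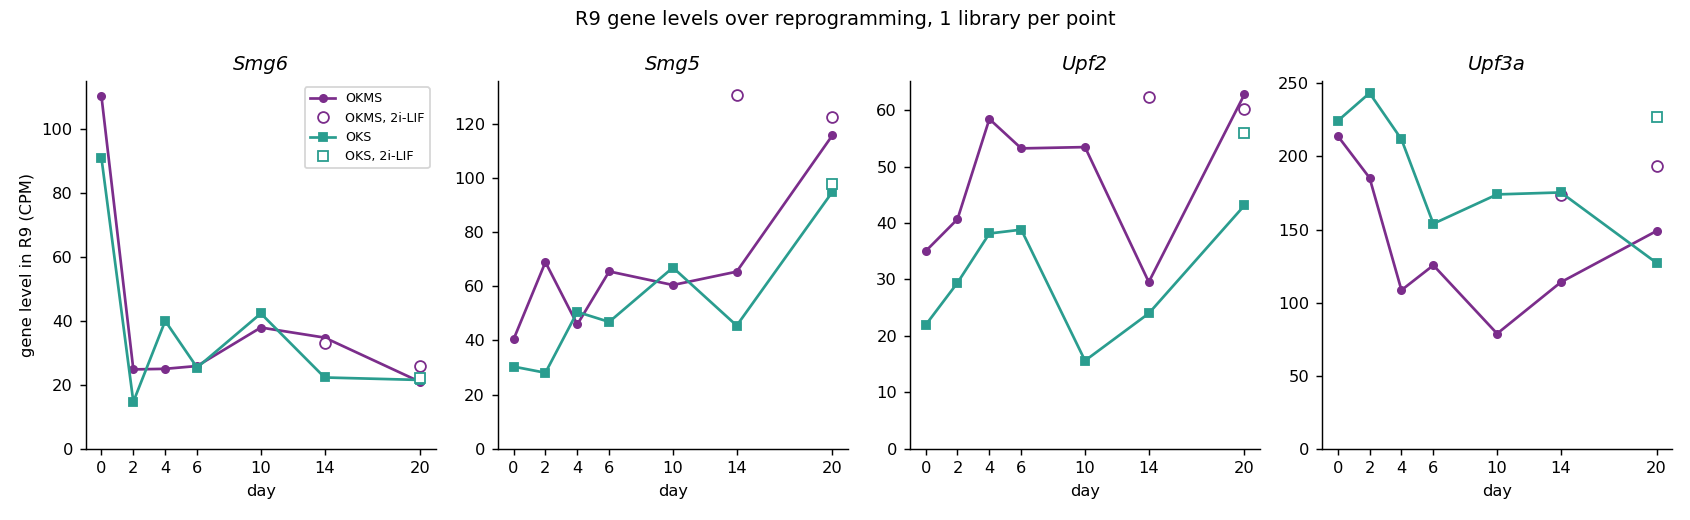
R9 gene levels in CPM (vertical axes, linear) against day of reprogramming for Smg6, Smg5, Upf2 and Upf3a, 1 library per point, with OKMS in purple and OKS in green. Lines join libraries in NPC medium (day 0) and FBS-LIF with doxycycline, and open symbols are cells moved to 2i-LIF. Smg6 drops from 110 and 91.1 CPM at day 0 to 24.9 and 14.7 CPM at day 2.

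OKMS cells had more Upf2 than OKS cells in all 9 pairs of the same day and chemistry in FBS-LIF with doxycycline. Examples are 40.7 against 29.4 CPM at day 2 in R9, 53.4 against 15.6 CPM at day 10 in R9 and 251 against 102 CPM at day 18 in R10. The paired difference was 0.72 ± 0.17 (limma, adjusted p = 0.00485). Each pair holds 1 OKMS and 1 OKS library, and the pairs differ by day or chemistry, with days 2 and 6 in both chemistries. The fit takes the pairs as replicates, so its p-values do not measure the spread between separate cell lines or cultures of a factor set. Upf3b was higher in OKMS in 7 of 9 pairs (0.57 ± 0.19, adjusted p = 0.0272) and Upf3a lower in 8 of 9 (-0.52 ± 0.15, adjusted p = 0.0162). These were 3 calls of 7 beside 36.7% of 14218 genes, 14.6% higher and 22.1% lower. No member differed by 1 or more on the log2 scale, against 20.1% of genes. The share of higher calls among all genes called was 39.7%, 51.3% after quantile normalization and 57.4% after median centring, and centring ended the Upf3a call (-0.32, adjusted p = 0.108). The Upf3b call was lost without any 1 of 5 pairs (adjusted p 0.0553 to 0.0776: R9 days 4, 6 and 10, R10 days 2 and 6). Days 2 to 6 alone gave 5 calls of 7, beside 40.5% of all genes. Days 10 to 20 alone gave 0 (limma; 1 with an unadjusted p under 0.05), beside 1.64%, and the R9 pairs alone 1, Upf2, beside 28.0%. Smg6 did not pass (-0.15 ± 0.22, adjusted p = 0.616).

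Cells moved to 2i-LIF were compared with cells of the same factor set, day and chemistry kept in FBS-LIF with doxycycline, in 5 pairs. No member was called by limma, edgeR or DESeq2, and 1 had an unadjusted p under 0.05 in each, beside 15.4% of 14935 genes called by limma. Upf3a was higher in 2i-LIF in 4 of 5 pairs, at 173 against 114, 193 against 149, 227 against 127, 79.3 against 46.0 and, in the pair that went the other way, 59.4 against 73.0 CPM (0.46 ± 0.19, adjusted p = 0.125). Without that pair, OKS day 18 in R10, the difference was 0.65 (adjusted p = 0.0455). Smg6 stayed low in both media, at 22.1 to 35.3 CPM in 2i-LIF and 20.9 to 41.5 CPM in FBS-LIF with doxycycline (-0.07 ± 0.24, adjusted p = 0.890).

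Beyond the 7 members, 4 lists of related genes, chosen with earlier results of these data known, were read in the same fits against the same shares of all genes. Of 7 other decay factors, 4 were higher and 2 lower in R10 stem cells (median 0.53), beside 69.2% of all genes called, and 1 higher and 0 lower in R9, beside 43.5%. For the unnumbered R1 library 0 were higher and 1 lower, beside 33.7%. Those named have the largest calls in R10: Nbas at 7.40 ± 0.97 CPM (SD, n = 7) in stem cells against 14.4 ± 4.74 (n = 4) in progenitors (-0.82), Smg9, a partner of Smg1, at 33.0 ± 8.42 against 18.5 ± 3.57 (0.78), and Ruvbl2, an ATPase, at 372 ± 61.3 against 239 ± 37.9 (0.63). Ruvbl2 was the 1 called in R9 (0.81, adjusted p = 0.00918), and Smg9, 27.2 against 26.4 CPM there, was not (0.06). For the unnumbered R1 library none of the 3 was called by limma (Nbas -0.57, adjusted p = 0.445; Smg9 0.06, 0.885; Ruvbl2 0.55, 0.148).

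The exon junction complex marks the joints that the Upf proteins read, and 6 of its genes were read. Of these, 2 were higher and 1 lower in R10, where 69.2% of all genes were called, and 2 higher in R9, where 43.5% were. Rbm8a, the core subunit Y14, was at 890 ± 66.1 CPM in R10 stem cells against 340 ± 8.46 in progenitors (1.38, adjusted p = 2.49e-09) and higher in R9 (1.31, adjusted p = 0.000827). Its partner Magoh was higher too (0.92 in R10 and 0.83 in R9), both also called for the unnumbered R1 library. The related Magohb was lower in R10 (-1.13) but at 81.1 against 77.7 CPM in R9. In WT cells after 2 days in FBS-LIF with doxycycline, 4 of the 6 were lower, beside 28.7% of all genes called, Rbm8a among them (-1.30, adjusted p = 0.00818), and the median was -1.13 against 0.12 over all genes.

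Of 9 termination and decapping genes, 4 were higher and 1 lower in R10, beside 69.2% of all genes called, and 3 higher in R9, beside 43.5%. Dcp2, the decapping enzyme, was at 60.0 ± 7.39 CPM in R10 stem cells and 15.5 ± 2.35 in progenitors (1.88), and was called in R9 (0.96) and for the unnumbered R1 library (2.12). Pabpc1, the poly(A)-binding protein, was higher in R10, at 1727 ± 453 against 594 ± 98.7 CPM, and in R9 (0.56). The unnumbered R1 library held 861 CPM of it and was not called (0.55, adjusted p = 0.156). Xrn1, the 5′ exonuclease, was higher by 1.17 in R10 but not called in R9, at 13.1 against 12.8 CPM (0.06, adjusted p = 0.879), nor for the unnumbered R1 library (0.74, adjusted p = 0.203). Of 12 genes known as substrates of the pathway, 7 were higher and 1 lower in R10 and 6 higher and 1 lower in R9, beside the same shares of 69.2% and 43.5% of all genes. For the unnumbered R1 library 2 were higher, Gadd45b among them (4.24, adjusted p = 0.00461), beside 33.7%. In WT cells in FBS-LIF with doxycycline 5 were lower and 1 higher, beside 28.7% of all genes called (median -1.08 against 0.12 over all genes). Gadd45b, a stress-response gene, was at 25.4 ± 7.35 against 0.888 ± 0.580 CPM in R10 (3.80) and higher in R9 (4.98). Its relative Gadd45a was lower (-2.20 in R10, -1.52 in R9), and the snoRNA host gene Snhg15 was higher (1.03 and 1.00). For the unnumbered R1 library Gadd45a stood at -1.29 and Snhg15 at 1.41, and neither was called. The substrates were thus called in both directions. In stem cells more were called higher than lower, with medians of 0.42 in R10 and 0.71 in R9, against 0.0059 and -0.071 over all genes.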

How the data were processed

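RNA of 45 mouse libraries was sequenced on Oxford Nanopore flow cells. Per the submitters' processing notes, reads were aligned with minimap2 2.24-r1122 to mm10. The counting tool's version and its use of strand are not given in the sources used here, so reads of overlapping genes may be mixed. The authors deposited gene values in CPM and transcript values in TPM, in tables named after IsoQuant. Their classification table, whose columns per the file headers are those of SQANTI3, gave 1883390 transcripts, each with a coding call and the percent of A after its end, and 276608 of them have a TPM. The gene table holds 13 further columns that match no sample label and were not used.

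Whole reads were recovered from the CPM steps: 100% of 711452 values above 0 lay within 0.02 of a whole read. Genes with at least 1 CPM, or transcripts with at least 1 TPM, in as many libraries as the smaller group holds were tested with limma 3.58.1 (R 4.3.3) on log2(value + 1), fitted over the whole table, two-sided, with Benjamini-Hochberg adjustment. edgeR 4.0.16 and DESeq2 1.42.0 on the recovered reads served as alternatives, and for stem cells against progenitors in R10 they called 10496 and 10467 genes beside limma's 10669. The code was checked on simulated data. Other alternatives were the pseudocount, the filter, normalization and leaving out libraries.

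The members and lists were chosen with earlier results of these data known. Named were all 7 members, their coding and non_coding transcript with the highest mean TPM, the Upf1 transcripts called in R10 and the short one, per list up to 3 called genes with the largest difference in R10, and the 3 genes most like Upf1 (mean of Pearson's r in R10 and R9, mean CPM at least 5). Smg6.G8223.563, Smg6.G8223.569, Upf2.G27507.17, Upf2.G27507.35, Upf2.G27507.40, Upf2.G27507.51, Upf3a.G49137.362 and Upf3b.G55613.236 were named after their values were seen. The bases printed after transcript ends come from the authors' classification table, and those at the Upf1 acceptor from the GENCODE M21 transcript sequences. Proteins were not used here. 1 gene of the list of other decay factors is not reported here and was left out of that list's counts.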

Additional observations from a re-analysis of the deposited data

Results flagged for a closer look

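A library far from the others of its group was found in 7 of 21 groups of 4 or 7 libraries, over the gene levels of the 7 members, by Dixon's 95% criterion. Chance meets it in about 1 in 20 independent groups, but these groups use the same libraries for each gene and are not independent. In 4 of the 7 the far library was the unnumbered R1 library among the 7 R10 stem cell libraries. It held 197 CPM of Upf1, 155 CPM of Upf2, 176 CPM of Upf3a and 358 CPM of Smg5. In each of these 4 it was the highest of its group. Of the progenitors, WT replicate 2 stood apart in R10 with 133 CPM of Upf2, and in R9 OKS stood apart with 21.9 CPM of Upf2 and WT replicate 1 with 147 CPM of Upf3a. The stem cell difference of Upf1 differed between the chemistries by -2.01 on the log2 scale (R10 minus R9, limma, adjusted p = 0.0125).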

How the results depend on the processing

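Of the alternative values computed, 1188 stayed on their side of the threshold or gave a similar count of calls. These include sign changes between values that were not called. Another 94 lost calls, 20 gained calls, and 9 changed sign where the main or the alternative value was called. The cause was not tested. In R10 stem cells against progenitors, 5 members were called, 3 with a difference of at least 1 and 2 for the unnumbered R1 library. For that library Upf1 reversed to 0.25, Upf1.G50143.2 to 0.030, Upf2.G27507.12 to 0.23 and Upf3a.G49137.363 to -0.61. In R9, 6 of the 19 transcripts called in R10 and tested there had the other sign: the same 3 at 1.00, 0.48 and -0.75, Upf3b.G55613.447 at -0.65, Upf3b.G55613.392 at -1.22 and Upf3b.G55613.401 at 0.66. Upf2 lost its R10 call with WT progenitors alone (adjusted p = 0.383). Leaving out each library in turn gave 1 to 3 calls in R9. Of the member transcripts tested, 22 of 50 were called, 12 of 19 at a minimum of 5 TPM, 4 of 92 for the unnumbered R1 library and, chosen after seeing the data, 7 of 78 in R9. The balance of Upf1 is set by the short transcript and is not counted here. Of the other members, Smg6 passed the threshold in R10 also at a minimum of 5 TPM and was not called for the unnumbered R1 library. The Smg6 sums hold transcripts picked or filtered through this contrast, so its balance stays a description. None of the other members had a balance call in R9. The Upf3b balance was -1.27 without incomplete splice matches.

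The time course gave 1 call by limma, 2 by edgeR and 2 by DESeq2, and 0 to 1 when a library was left out. Over all genes edgeR called 4803 there against limma's 2099, and in the 2i-LIF comparison DESeq2 called 1496 against 2298. For 2i-LIF 0 to 1 members were called when a pair was left out. OKMS against OKS gave 3 calls, 0 at a difference of at least 1, 1 in R9, 5 at days 2 to 6 and 0 at days 10 to 20. The interaction gave 1 call and 0 without the 6 numbered libraries. Median centring, chosen after seeing the data, shifted the median of all genes by 0.23 in R10, 0.16 in R9, -0.15 for the WT medium comparison, -1.08 for the time course and 0.19 for OKMS against OKS. Quantile normalization shifted the last 3 by -0.16, -0.18 and 0.14.

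In the WT medium comparison 1 member was called, 0 in R9 and 0 without any 1 library. A replicate block gave 2 calls, adding Smg5 (-0.47, adjusted p = 0.0461). Deviations of same-numbered libraries correlated at 0.474 with only 2 pairs, so the numbers do not establish a pairing. Depth limits Smg1 most, with 1 to 22 reads per R9 library.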
